A study of Mus musculus with 4 samples.

Results

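The 3 genes that encode the mitochondrial enzymes of ketone body oxidation, Bdh1, Oxct1 and Acat1, were described in mouse myocardium after infarction. They were taken by name: each of the 3 symbols matched a single Ensembl identifier among the 21552 genes counted, namely ENSMUSG00000046598 for Bdh1 on chromosome 16, ENSMUSG00000022186 for Oxct1 on chromosome 15 and ENSMUSG00000032047 for Acat1 on chromosome 9. The infarcted group held 2 C57BL/6 mice whose left anterior descending coronary artery had been tied off permanently, with heart tissue taken from the remote area, outside the infarct, at 7 days. The uninjured group held 2 C57BL/6 mice without an infarct, whose heart samples carry the same name of remote area in the labels. The uninjured samples are labelled WT and the infarcted ones MI, and the labels of both groups carry the mark of 7 days. Polyadenylated RNA was sequenced as single reads of 50 bp. Sex and age are not given, nor is it stated whether uninjured mice had a sham operation, so surgery and infarction cannot be told apart here. The labels name no genetic alteration in either group.

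Ketone bodies are small fuels that the liver makes from fatty acids and that the heart takes up through monocarboxylate carriers. In the mitochondria of heart muscle, beta-hydroxybutyrate dehydrogenase (Bdh1) oxidises beta-hydroxybutyrate to acetoacetate. Succinyl-CoA:3-oxoacid CoA transferase (Oxct1) then moves coenzyme A from succinyl-CoA to acetoacetate, and acetyl-CoA acetyltransferase (Acat1), a thiolase, splits the acetoacetyl-CoA into acetyl-CoA for the citrate cycle. Acat1 also acts in the last step of isoleucine breakdown.

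A single sequence carried the only difference in transcript form with an unadjusted p below 0.05 in edgeR among these genes, where limma gave none and the difference did not pass over all events. It is the 65-nt exon of Acat1, exon 10 of the 12 in its transcript, on the minus strand at chr9:53392945-53393009 of mm9 in the deposited events and at chr9:53584840-53584904 of GRCm38. It is shown here 5′ to 3′ from the GENCODE M21 transcript, with the exon in capitals and 12 bases of each neighbouring exon in lower case.
Acat1 exon 10: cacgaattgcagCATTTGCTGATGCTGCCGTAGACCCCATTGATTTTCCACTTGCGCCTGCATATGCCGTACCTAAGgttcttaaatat
The exon lies within the coding sequence, and its length leaves a remainder of 2 when divided by 3. Read without it, the frame met a stop after 312 codons, against 424 codons in the full transcript, and 310 codons precede the exon.

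Start regions are shown for Oxct1, which was called lower, beside Bdh1, which was not, each from 250 bases before to 50 bases after the start in RefSeq on GRCm38.p6. The promoter table matched 2 of the 3 genes, and Acat1 was not among them. Both strands were searched for the nuclear receptor core AAGGTCA, the GC box GGGCGG, the CCAAT box CCAAT and the TATA box TATAAA. The single match, a GC box that reads CCGCCC on the strand shown, is in capitals.
Oxct1, chr15:4026178-4026477, plus strand: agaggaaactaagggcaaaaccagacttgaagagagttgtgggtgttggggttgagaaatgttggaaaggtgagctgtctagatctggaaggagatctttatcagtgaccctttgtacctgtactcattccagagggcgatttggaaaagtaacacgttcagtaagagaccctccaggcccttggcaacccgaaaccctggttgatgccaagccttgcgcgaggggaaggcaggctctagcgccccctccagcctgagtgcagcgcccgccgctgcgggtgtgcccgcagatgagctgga
Bdh1, chr16:31428503-31428802, plus strand: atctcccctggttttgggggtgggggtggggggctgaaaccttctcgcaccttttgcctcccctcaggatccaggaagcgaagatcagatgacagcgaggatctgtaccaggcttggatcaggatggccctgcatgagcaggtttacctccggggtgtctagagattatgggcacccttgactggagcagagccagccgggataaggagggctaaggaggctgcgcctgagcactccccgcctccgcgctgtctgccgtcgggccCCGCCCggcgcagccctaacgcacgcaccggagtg
Over all 32851 promoters of this length the GC box was present in 36%, the CCAAT box in 37.4%, the TATA box in 13.6% and the nuclear receptor core in 4.72%. The Oxct1 region was 55.3% G and C with 11 CpG, and the Bdh1 region 63.7% with 17 CpG, against medians of 52.7% and 7 CpG over all promoters. A further RefSeq start of Bdh1, at chr16:31422047-31422346, had 48.3% G and C, 7 CpG and no match. The gene counts do not separate the starts of Bdh1.

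The libraries held 46232326 and 35715115 counts in infarcted mice, against 53944859 and 70885393 in uninjured mice, of which genes of the mitochondrial genome took 36.7% to 48.4%. Heart muscle markers were abundant in each library, and 4 of 8 were called lower in infarcted hearts, with summed levels of 27375 and 25118 CPM against 41883 and 50374 CPM in uninjured hearts (CPM, counts scaled to the normalised library size). Fibroblast markers were called higher for 4 of 7 genes, at 4065 and 3024 CPM in infarcted hearts against 586 and 579 CPM in uninjured hearts. Macrophage markers were called higher for 6 of 6, at 176 and 174 CPM against 64.9 and 50.2 CPM. Of endothelial markers 0 of 6 were called, and of 4 mural markers 1 was called lower and 1 higher. Over all genes tested, 14.6% were called lower and 18.3% higher. Summed atrial markers, Nppa among them, stood at 295 and 2009 CPM in infarcted replicates 1 and 2, against 88.8 and 49.5 CPM in uninjured hearts. Of the 3 atrial markers tested, 0 were called. Adipocyte markers were at 0.10 and 11.3 CPM in infarcted hearts and 0.292 and 1.39 CPM in uninjured ones, and hepatocyte markers were at or below 0.429 CPM in each library, with Serpina1a at 0. In bulk tissue, fewer heart muscle cells and less RNA per cell cannot be told apart, and the part of these markers in the results below was not tested beyond the ratios given. The p-values measure the spread between these mice alone, and in the model fits the spread of each gene is estimated with the help of all genes.

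Per length, Oxct1 was the most abundant of the 3 mRNAs, Acat1 came next and Bdh1 was the least abundant, in each of the 4 libraries. Reads per kilobase of exon, scaled to library size (RPKM), for Oxct1 were 215 and 199 in infarcted hearts, against 312 and 334 in uninjured hearts. Acat1 had 73.4 and 75.3 RPKM in infarcted hearts, against 124 and 154 RPKM in uninjured hearts. Bdh1 had 30.9 and 22.9 RPKM in infarcted hearts, against 28.1 and 33.5 RPKM in uninjured hearts. Neighbours in this order were separated by more than the spread between mice of a group, and no library of one gene reached the level of the next. Among 13733 genes with a level per length, Oxct1 ranked 93 in infarcted and 88 in uninjured hearts, Acat1 ranked 282 and 194, and Bdh1 ranked 825 and 814.

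Infarcted remote myocardium had less Oxct1 and Acat1 mRNA than uninjured myocardium, whereas Bdh1 did not pass the test. Oxct1 was 1.56-fold lower and Acat1 1.87-fold lower, as 2 of the 3 genes passed the test in the lower direction. Over all 13905 genes tested, 14.6% were called lower, 18.3% higher and 33.0% in either direction. A call is a Benjamini-Hochberg adjusted p below 0.05 in edgeR's quasi-likelihood test over all genes. The share of all genes called lower was 5.65% on the scale of library totals and 3.92% in a test for a change of at least 1.5-fold. It was 11.5% without infarcted replicate 1, 8.83% without infarcted replicate 2 (6.25% in DESeq2) and 0.0560% without uninjured replicate 2 (4.47% in DESeq2). The median log2 fold change was -0.64 for the 3 genes and 0.02 for all genes.

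Bdh1, the entry enzyme for beta-hydroxybutyrate, had counts of 6014 and 3742 in infarcted replicates 1 and 2, against 5235 and 8190 in uninjured replicates 1 and 2. On the normalised scale these were 120.3 and 89.2 CPM in infarcted hearts, against 109 and 130.4 CPM in uninjured hearts. The groups overlapped, since infarcted replicate 1 lay between the uninjured mice and infarcted replicate 2 lay below both. The means were 105 ± 22.0 CPM in infarcted hearts and 119.9 ± 15.0 CPM in uninjured hearts (SD, n = 2 each). The edgeR quasi-likelihood log2 fold change was -0.19 with a standard error of 0.21 (Benjamini-Hochberg adjusted p = 0.511), which does not show that the levels were equal. Its direction turned to 0.14 on the scale of library totals, which moved the median of all genes to 0.36, and to 0.00226 in DESeq2 without infarcted replicate 2. The infarcted mice differed from each other by 0.43 on the log2 scale. Infarcted replicate 2, the lower one, was the library with 2009 CPM of atrial markers, and a link to the Bdh1 level was not tested.

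Oxct1, the CoA transferase that commits acetoacetate to oxidation outside the liver, had counts of 39753 and 30898 in infarcted hearts, against 55309 and 77612 in uninjured hearts. These were 795 and 737 CPM in infarcted hearts, against 1155 and 1236 CPM in uninjured hearts. Both infarcted mice lay below both uninjured mice. The means were 766 ± 41.3 CPM in infarcted hearts and 1195 ± 57.6 CPM in uninjured hearts (SD, n = 2 each). The log2 fold change was -0.64 with a standard error of 0.23 (edgeR quasi-likelihood test, Benjamini-Hochberg adjusted p = 0.0432). The call ended, with edgeR adjusted p of 0.120, 0.246 and 0.101, when infarcted replicate 1, infarcted replicate 2 or uninjured replicate 2 was left out, at log2 fold changes of -0.78, -0.61 and -0.60. It also ended on the scale of library totals, at -0.30 with an adjusted p of 0.328 in edgeR, and in DESeq2 without infarcted replicate 2, at -0.59 with an adjusted p of 0.132.

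Acat1, the thiolase that closes the pathway, had counts of 13796 and 11877 in infarcted hearts, against 22243 and 36440 in uninjured hearts. These were 276 and 283 CPM in infarcted hearts, against 464 and 580.4 CPM in uninjured hearts. The infarcted mice were close to each other and below both uninjured mice, of which replicate 2 was the higher. The means were 279.5 ± 5.13 CPM in infarcted hearts and 522 ± 82.0 CPM in uninjured hearts (SD, n = 2 each). The log2 fold change was -0.90 with a standard error of 0.22 (edgeR quasi-likelihood test, Benjamini-Hochberg adjusted p = 0.00732). Without uninjured replicate 2 it was -0.74 with an edgeR adjusted p of 0.0708, and on the scale of library totals -0.55 with an adjusted p of 0.0659. In DESeq2 without uninjured replicate 2, both Acat1 (adjusted p = 0.00905) and Oxct1 (adjusted p = 0.0482) were called. The groups did not overlap, infarcted lower, for Oxct1 and Acat1, and so they did for 33.8% of all genes tested.

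**Figure D1:**
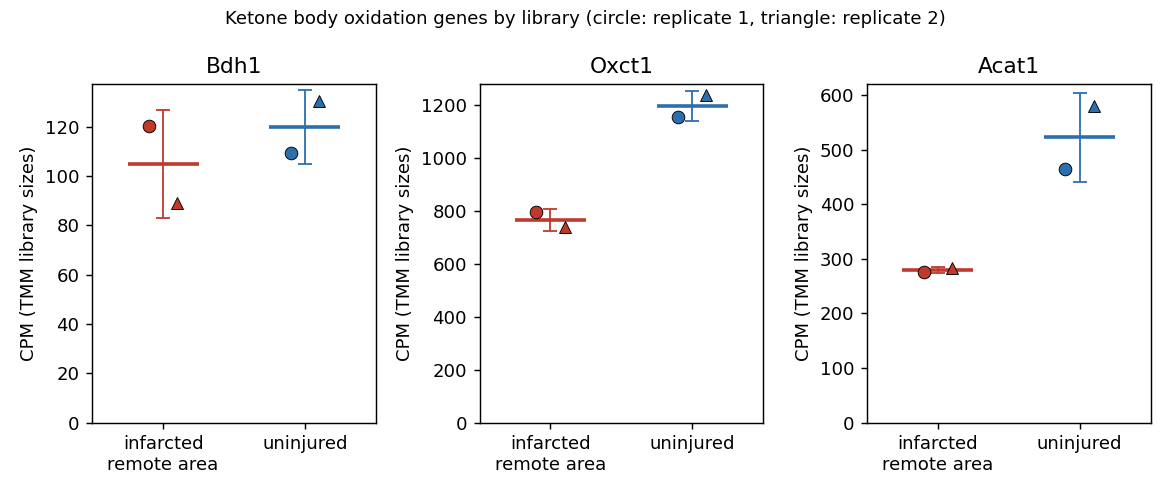
Normalised levels in CPM (vertical axes, from 0) of Bdh1, Oxct1 and Acat1 in the infarcted remote area (left in each panel) and in uninjured hearts (right), with circles for replicate 1, triangles for replicate 2, and lines and bars for the mean and SD of 2 mice. Infarcted hearts held 737 and 795 CPM of Oxct1 and 276 and 283 CPM of Acat1, below both uninjured hearts, while the Bdh1 values of the groups overlap.

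Ratios taken within a library do not depend on how libraries are scaled, and they set the 3 enzymes against each other. The log2 ratio of Bdh1 to Acat1 counts was -1.20 and -1.67 in infarcted hearts, against -2.09 and -2.15 in uninjured hearts, a difference of 0.69. The log2 ratio of Bdh1 to Oxct1 was -2.72 and -3.05 in infarcted hearts, against -3.40 and -3.24 in uninjured hearts, a difference of 0.44. The log2 ratio of Oxct1 to Acat1 was 1.53 and 1.38 in infarcted hearts, against 1.31 and 1.09 in uninjured hearts, a difference of 0.25. In each of the 3 ratios both infarcted mice lay above both uninjured mice, which gave p = 0.33 in a two-sided exact permutation test, the smallest p that 2 mice against 2 allow. On the log2 scale the Bdh1 to Acat1 ratio is the sum of the other 2, so its separation follows from theirs. How many other gene pairs separate likewise was not counted. With any single mouse left out, the differences stayed between 0.454 and 0.922 for Bdh1 to Acat1, between 0.277 and 0.598 for Bdh1 to Oxct1 and between 0.139 and 0.362 for Oxct1 to Acat1.

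**Figure D2:**
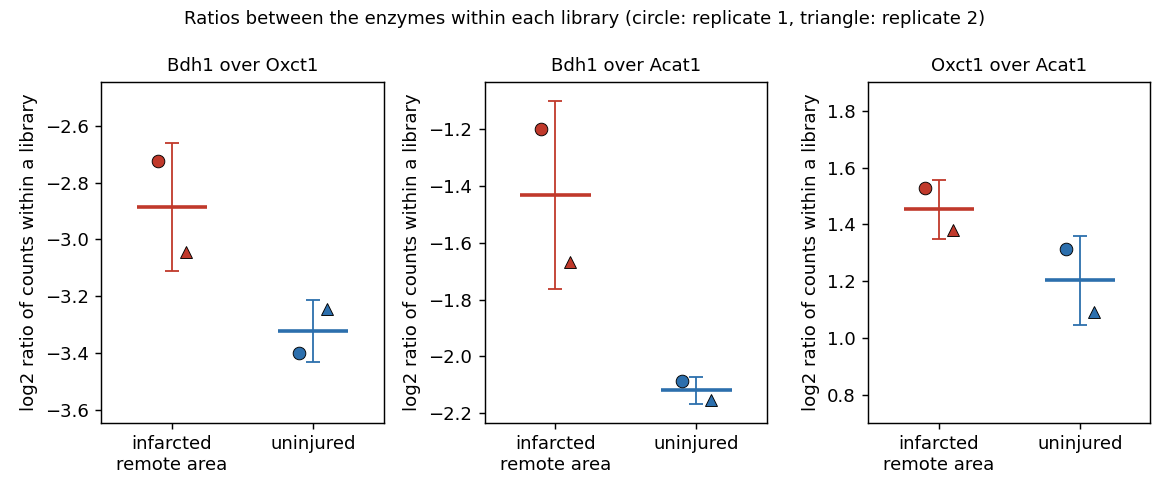
Log2 ratios of counts between pairs of the enzymes within each library (vertical axes, each spanning the same number of log2 units), infarcted hearts left and uninjured hearts right, with lines and bars for the mean and SD of 2 mice. In each panel both infarcted mice lie above both uninjured mice, most apart for Bdh1 over Acat1 (difference 0.69) and least for Oxct1 over Acat1 (0.25). Bdh1 over Acat1 is the sum of the other 2 log2 ratios.

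Set against the summed heart muscle markers of the same library, the 3 genes stood as follows. Acat1 equalled 1.01% and 1.13% of the summed marker CPM in infarcted hearts, against 1.11% and 1.15% in uninjured hearts, and these groups overlapped (log2 difference -0.08, two-sided exact permutation p = 0.667). Oxct1 equalled 2.90% and 2.93% in infarcted hearts, against 2.76% and 2.45% in uninjured hearts (log2 difference 0.17, exact permutation p = 0.33). Bdh1 equalled 0.439% and 0.355% in infarcted hearts, against 0.261% and 0.259% in uninjured hearts (log2 difference 0.60, exact permutation p = 0.33). Relative to these markers, the values of Oxct1 and Bdh1 were thus above the uninjured ones in both infarcted mice, and those of Acat1 were not separated. The marker genes also changed themselves, so these shares describe levels relative to a moving sum. That sum was lower in both infarcted hearts, while the median log2 fold change over all genes was 0.02. A gene that did not change would thus rise on this ratio, and the share of all genes that separate likewise was not counted.

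A further 17 genes of ketone body handling were examined and 10 of them tested, of which 2 were called lower and 3 higher in infarcted hearts, with a median log2 fold change of 0.37. Over all genes tested, the shares called were 14.6% lower and 18.3% higher. The lower calls were the monocarboxylate carrier Slc16a7 and the carrier chaperone Bsg. The higher calls were Aacs, a cytosolic acetoacetyl-CoA synthetase, the carrier Slc16a3 and the chaperone Emb. Leaving out uninjured replicate 2 left 0 called lower by edgeR and 1 higher, Slc16a3, and DESeq2 then called 1 lower.

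The carriers diverged. Slc16a3, known for lactate export from glycolytic cells, had 8.98 and 8.70 CPM in infarcted hearts, against 0.898 and 1.13 CPM in uninjured hearts, and was 8.66-fold higher. Emb, a relative of Bsg that escorts monocarboxylate carriers, had 4.56 and 8.84 CPM in infarcted hearts, against 0.668 and 0.605 CPM in uninjured hearts, and was 10.5-fold higher. Emb shares exon sequence on the opposite strand with Gm17509, and no source used here states if the reads keep their strand, so its level is uncertain. Slc16a7, a carrier with high affinity for pyruvate and ketone bodies, had 2.20 and 2.43 CPM in infarcted hearts, against 5.80 and 6.23 CPM in uninjured hearts, and was 2.60-fold lower. Its call ended without uninjured replicate 2 (adjusted p = 0.0694 in edgeR and 0.0852 in DESeq2), and its exons overlap Gm47862 on the opposite strand. Slc16a1, a widely expressed carrier for lactate and ketone bodies, had 174 and 184 CPM in infarcted hearts, against 186 and 172 CPM in uninjured hearts, and its groups overlapped. Its log2 fold change was -0.00 with a standard error of 0.20 (edgeR quasi-likelihood, Benjamini-Hochberg adjusted p = 0.996), and 0.35 on the scale of library totals (adjusted p = 0.204). Bsg, the chaperone of Slc16a1 and Slc16a3, had 588 and 585 CPM in infarcted hearts, against 888 and 1136 CPM in uninjured hearts. Its log2 fold change of -0.79 (edgeR adjusted p = 0.0197) became -0.48 (adjusted p = 0.0568) with the trend over transcript length removed. On the scale of library totals it was -0.44 (edgeR adjusted p = 0.158). With each mouse left out in turn, Bsg stayed between -0.96 and -0.61 in edgeR and between -0.98 and -0.62 in DESeq2. The Bsg call ended in edgeR without either infarcted mouse in turn or uninjured replicate 2, but did not end in DESeq2. Slc16a6 had 16.5 and 17.9 CPM in infarcted hearts, against 13.7 and 10.7 CPM in uninjured hearts, and did not pass the edgeR test (adjusted p = 0.0826), though it was called at 0.85 on the scale of library totals. Its exons overlap Arsg and Amz2 on the opposite strand.

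Among the enzymes, Aacs had 7.06 and 6.13 CPM in infarcted hearts, against 2.61 and 3.89 CPM in uninjured hearts, a log2 fold change of 1.02 with a standard error of 0.27. Leaving out infarcted replicate 1, uninjured replicate 1 or uninjured replicate 2 ended the Aacs call in edgeR, at adjusted p of 0.0574, 0.0849 and 0.0679. In DESeq2 it ended without infarcted replicate 1, infarcted replicate 2 or uninjured replicate 1, at adjusted p of 0.214, 0.0812 and 0.221, so leaving out any single mouse ended the Aacs call in at least 1 of the tools. Bdh2 and Acat2, cytosolic enzymes named alike, stayed at or below 1.69 CPM in each library and were not called (edgeR adjusted p = 0.283 and 0.130). Bdh2 was called higher in edgeR without infarcted replicate 1 (log2 fold change 2.05, adjusted p = 0.00418) and was at -0.24 without infarcted replicate 2. The lactate receptor Hcar1 was not called either (adjusted p = 0.796). Hmgcll1, Oxct2a, Oxct2b, Acat3, Hcar2 and Ffar3 were below the count filter, among which Oxct2b and Ffar3 had no counts in any library, and Hmgcs1 was not matched. The handling of reads shared by near-identical copies is not stated.

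**Figure D3:**
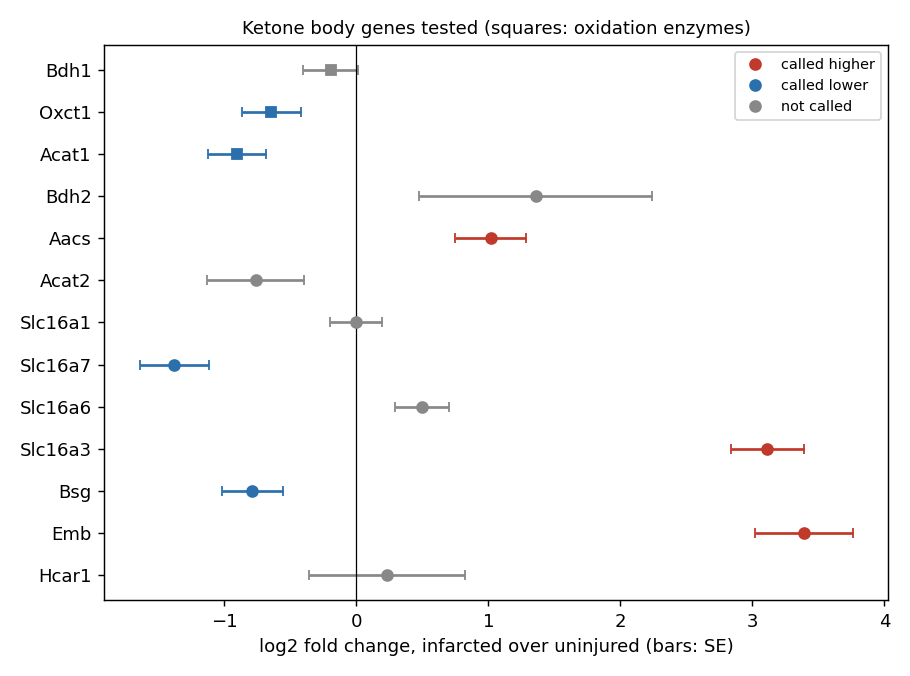
Log2 fold change, infarcted over uninjured (horizontal axis), with its standard error for the 3 oxidation enzymes (squares) and 10 other ketone body genes tested (circles), from edgeR with 2 mice a group. Oxct1, Acat1, Slc16a7 and Bsg are called lower, and Aacs, Slc16a3 and Emb higher.

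Enzymes that feed or drain the pathway were called lower in infarcted hearts in numbers that depended on the setting. Of the enzymes that make or use succinyl-CoA, the CoA donor of Oxct1, or that take up acetyl-CoA, 5 of 7 were called lower, with a median log2 fold change of -0.70. Sucla2, a subunit of succinyl-CoA synthetase, had 272 and 238 CPM in infarcted hearts, against 502 and 557 CPM in uninjured hearts, a log2 fold change of -1.05 with a standard error of 0.22. The genes of other subunits of succinyl-CoA synthetase, Suclg1 and Suclg2, were at -1.07 and -0.71. Of a list of the other thiolases, the isoleucine steps that lead to Acat1 and the fatty acid oxidation gene Hadha, 12 of 13 tested were called lower, with a median of -1.04. Acaa2, a thiolase of fatty acid oxidation, had 216 and 238 CPM in infarcted hearts, against 467 and 808 CPM in uninjured hearts, and Bckdhb and Dbt, subunits of the branched-chain keto acid dehydrogenase, were at -1.29 and -1.10. On the scale of library totals 2 of the succinyl-CoA list and 8 of the thiolase list were called lower. In edgeR 2 of the succinyl-CoA list were called without infarcted replicate 1, and 2 without infarcted replicate 2. In edgeR without uninjured replicate 2, 0 genes of either list were called, whereas DESeq2 without it called 3 of the succinyl-CoA list and 9 of the thiolase list.

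Other fuels gave the following counts. Fatty acid oxidation had 15 of 16 genes called lower, with a median log2 fold change of -1.03. Eci1, an enoyl-CoA isomerase, Hadh, a hydroxyacyl-CoA dehydrogenase, and Cpt2, the inner carnitine palmitoyltransferase, were at -1.43, -1.42 and -1.29. Glucose and lactate handling had 5 of 15 called lower and 1 higher, with a median of -0.44. Pfkp, the platelet phosphofructokinase, was at 1.25, and the lactate dehydrogenase subunit Ldhb and the pyruvate carrier subunit Mpc2 at -1.36 and -1.33. Of nuclear-encoded genes common to mitochondria, 13 of 14 were called lower, with a median of -0.81, against which stand the values of -0.90 for Acat1, -0.64 for Oxct1 and -0.19 for Bdh1. Uqcrc1, Ndufs1 and Vdac3 of that list were at -1.13, -0.94 and -0.90. On the scale of library totals the numbers called lower became 10 for fatty acid oxidation, 4 for glucose and lactate, where 3 were called higher, and 3 for mitochondrial content. DESeq2 on all 4 libraries called 8 glucose and lactate genes lower, and 2070 of all genes, against 2037 of all genes in edgeR. The mitochondrial list had 7 called lower in edgeR without infarcted replicate 1, 4 without infarcted replicate 2 and 8 with the trend over transcript length removed. Without uninjured replicate 2 edgeR called 0 genes of these lists, and DESeq2 called 12, 5 and 9 lower.

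Among 15 nuclear regulators of fuel genes, 3 were called lower and 0 higher, with a median log2 fold change of -0.35. On the scale of library totals 1 was called lower and 2 higher, and with the trend over transcript length removed 7 were called lower. With that trend removed, 6002 of all 13905 genes had an unadjusted p below 0.05 in edgeR, against 5950 with it kept. Rxrg, a retinoid X receptor, had 23.9 and 16.9 CPM in infarcted hearts, against 50.4 and 68.4 CPM in uninjured hearts, a log2 fold change of -1.54. Esrra, an estrogen-related receptor that binds genes of oxidative metabolism, was at -0.87, and Tfam, a factor for the mitochondrial genome, at -0.62. The Tfam call ended in edgeR without infarcted replicate 2 (adjusted p = 0.190) and without uninjured replicate 2 (0.0946), and with uninjured replicate 2 left out edgeR called 0 of the 15 and DESeq2 called 1.

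The genes most alike to each enzyme were sought by the root mean square difference of centred log2 CPM over the 4 libraries, among 9509 genes with a mean of at least 5 CPM. Bdh1 was most like Pomt1, Gbp3 and Stip1, at 0.0196, 0.0251 and 0.0333. Oxct1 was most like Hbs1l, Paip2 and Sdhaf2, at 0.00889, 0.0150 and 0.0158. Acat1 was most like Twnk, Vstm4 and Mdh1, at 0.0118, 0.0169 and 0.0171. Within a difference of 0.1 there were 129 genes for Bdh1, 412 for Oxct1 and 294 for Acat1, so with 4 libraries such a pattern is shared widely. Mdh1, the cytosolic malate dehydrogenase, had 851 and 868 CPM in infarcted hearts, against 1448 and 1836 CPM in uninjured hearts.

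Inclusion of exons and use of splice sites was given for 20 entries in the 3 genes, some of them complementary forms of the same splice site. For such pairs only a single form could be tested. In all, 4 entries had enough reads of both forms and were tested among 8426 events. By edgeR's quasi-likelihood test of whether the ratio of the forms differed between groups, 0 of the 4 were called, as 0.00% of all events were, and 1 of the 4 had an unadjusted p below 0.05, against 544 of all 8426. By limma on the logit, 0 events were called, and 0 of the 4 and 664 of all had an unadjusted p below 0.05. The event with the small p was the Acat1 exon 10 printed above.

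Transcripts without exon 10 of Acat1 were rare in each heart. Infarcted replicate 1 had 7.88 skipping reads of 1575, or 0.50% with an exact 95% Clopper-Pearson interval of 0.220% to 0.998%, and infarcted replicate 2 had 0 of 1328, which allows up to 0.277%. Uninjured replicate 1 had 50.8 of 2374, or 2.14% with an interval of 1.60% to 2.82%, and uninjured replicate 2 had 47.0 of 4163, or 1.13% with an interval of 0.831% to 1.5%. Both infarcted hearts thus lay below both uninjured hearts, by counts that the authors had corrected and that are not whole, and the intervals cover counting error only. The log2 odds of inclusion differed by 2.53 with a standard error of 0.89, an unadjusted p of 0.0262 and a Benjamini-Hochberg adjusted p of 0.751 by the edgeR quasi-likelihood test, so the difference did not pass over all events. By p it ranked 280 of 8426. Left out one at a time, the mice gave values from 1.61 to 7.39.

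**Figure D4:**
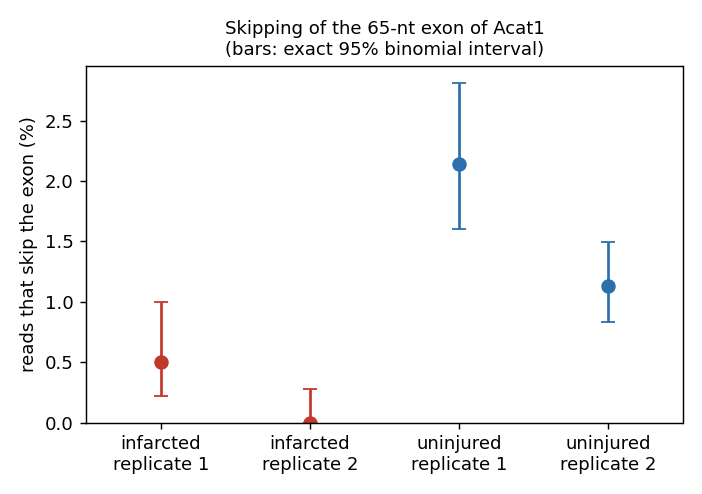
Percent of corrected reads that skip the 65-nt exon of Acat1 (vertical axis, from 0) in each library, infarcted hearts left and uninjured hearts right, with exact 95% binomial intervals. The infarcted libraries stand at 0.50% and 0%, and the uninjured ones at 2.14% and 1.13%.

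The remaining events of the 3 genes had nearly one form alone. The 144-nt exon of Acat1 was included in at least 99.82% of reads in each library, with a log2 odds difference of 0.51 (edgeR quasi-likelihood adjusted p = 0.967). The 90-nt exon of Oxct1 was included in 99.90% and 99.74% of reads in infarcted hearts, against 99.92% and 100% in uninjured hearts, a log2 odds difference of -2.13 (edgeR adjusted p = 0.799). The 27-nt extension at a splice site of Bdh1 was used in 0.29% and 0.45% of reads in infarcted hearts, against 0.33% and 0.66% in uninjured hearts (edgeR adjusted p = 0.962). The 109-nt exon of Oxct1 was in 100% of reads in every library, and an 88-nt exon of Bdh1 was in at most 0.39%.

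Transcript length and base composition were looked at beside these levels. Genes with a longest transcript within 1.2-fold of the length of Bdh1, Oxct1 and Acat1 had median log2 differences, infarcted minus uninjured, of -0.01, 0.03 and 0.02. With the trend over transcript length removed, Oxct1 and Acat1 were at -0.68 and -0.93, and with the trend over GC content removed at -0.68 and -0.96, each still called. Gm15743 overlaps exons of Bdh1 and BC037032 overlaps exons of Oxct1 on the opposite strand, and neither had a row of its own among the counts, so reads from them cannot be told apart from those of the enzymes.

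**Figure D5:**
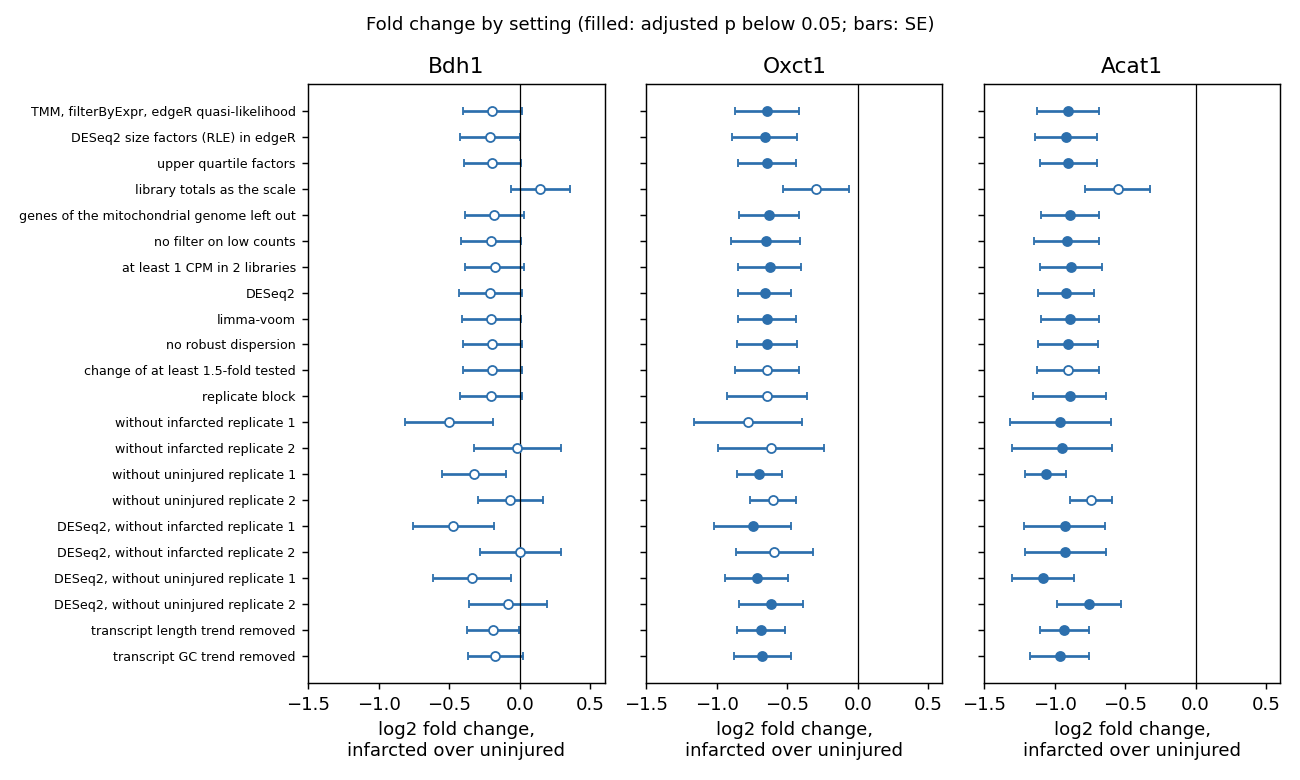
Log2 fold change, infarcted over uninjured (horizontal axes), of Bdh1, Oxct1 and Acat1 under each setting (rows), with standard errors and filled points where the adjusted p is below 0.05. Bdh1 is called in no setting, the Oxct1 call ends in several settings, among them with infarcted replicate 1, infarcted replicate 2 or uninjured replicate 2 left out of edgeR, and Acat1 is lower in each setting, at -0.55 with library totals as the scale.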

How the data were processed

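Total RNA from 4 mouse hearts was purified with a Qiagen kit and polyadenylated RNA was sequenced on an Illumina GAII, per the labels' protocols. The authors deposited raw counts for 21552 Ensembl genes, whole numbers without normalization, and the percent inclusion of 124326 splicing events with corrected inclusion and exclusion reads. The files use mm9, per the submitters' processing notes, and no source used here names the aligner, the counter or the event caller. Symbols and lengths came from GENCODE M21, in which 20450 genes had a symbol and 1102 did not. Promoters came from RefSeq. Groups came from the labels, which give no batch.

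Counts were tested in edgeR 4.0.16 (R 4.3.3) with TMM normalization, filterByExpr, robust dispersions and the quasi-likelihood test, over 13905 genes. A call needed an adjusted p (Benjamini-Hochberg) below 0.05. Standard errors are the fold change divided by the root of its F statistic. The common biological coefficient of variation was 19.8%, on 2 residual degrees of freedom. Events needed 10 reads in each library and 5 of each form over all libraries, and their reads were rounded for edgeR. Other settings were other normalizations and filters, DESeq2 1.42.0, limma 3.58.1, a 1.5-fold test, a replicate block, each library left out, and trends over length and GC content. Ratios used counts, and nearest patterns used log2 CPM with a prior count of 2. The gene-level and event tests were tested on simulated data. Members and lists were chosen with earlier results of these data known. Named from each list were the 3 tested genes with the smallest p, all ketone body genes tested, and the 3 nearest patterns of each enzyme. Some genes under this rule are not reported here.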

Additional observations from a re-analysis of the deposited data

How the results depend on the processing

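Among 21 other settings, the direction of Oxct1 and Acat1 stayed lower in each, and Bdh1 was called in none. Library totals as the scale gave Bdh1 0.14, Oxct1 -0.30 and Acat1 -0.55 (log2), with 0 of the 3 called lower, 786 genes called lower and 4386 higher over all genes, and 1 other ketone body gene lower. A test for a change of at least 1.5-fold gave Oxct1 -0.64 (adjusted p = 0.523) and Acat1 -0.90 (adjusted p = 0.132), 0 of the 3 lower, and 545 genes lower and 1366 higher, with 1 other ketone body gene lower. With the replicate block Oxct1 was -0.64 (edgeR adjusted p = 0.0574) and 1 of the 3 was called lower. Over all genes the block called 2340 lower and 2950 higher. The correlation of replicate deviations between the groups was 0.108 over 13905 genes. With 2 pairs it cannot decide whether the replicate numbers pair the mice. The block called 4 other ketone body genes higher, Bdh2 among them (1.41, adjusted p = 0.0346), 5 nuclear regulators lower and 1 higher, and 0 splicing events.

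With each mouse left out in turn, edgeR gave Bdh1 -0.50 to -0.02, Oxct1 -0.78 to -0.60 and Acat1 -1.06 to -0.74, and called 0 to 2 of the 3 lower, 8 to 1824 genes lower, 102 to 2144 higher, and 0 to 2 other ketone body genes lower and 1 to 3 higher, with the lone mouse assumed to vary like the other group. DESeq2 gave Bdh1 -0.47 to 0.00226, Oxct1 -0.74 to -0.59 and Acat1 -1.08 to -0.76, and called 1 to 2 of the 3 lower, 602 to 1721 genes lower (851 and 1170 without infarcted replicates 2 and 1) and 1157 to 1823 higher (1303 and 1360), and 1 to 2 other ketone body genes lower. With the trend over transcript length removed, 1 other ketone body gene was called lower.

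By the longest transcript in place of all exons, levels per length were 33.1 (infarcted) and 37.9 (uninjured) RPKM for Bdh1, 338.9 for Oxct1 in uninjured and 82.1 for Acat1 in infarcted hearts. Directions that turned among genes not called in the analysis as reported were Slc16a1 at 0.35 (library totals), 0.00544 (mitochondrial genes left out), 0.0151 (at least 1 CPM), and 0.0514 or, in DESeq2, 0.0308 (without uninjured replicate 1), and ranged down to -0.0693. Pomt1 turned to 0.15, Gbp3 to 0.0965 and Stip1 to 0.158 on library totals, and Pomt1 to 0.0108, or 0.0322 in DESeq2, without infarcted replicate 2, and ranged down to -0.53. Bdh2 turned to -0.24 or -0.18 without infarcted replicate 2 (up to 2.81 without another), Hcar1 to -0.16 or -0.18 without uninjured replicate 1 (up to 0.85), and the 144-nt exon of Acat1 to -0.52 without infarcted replicate 1 (up to 3.77). The cause was not tested. With 2 mice a group, the main fit had 2 residual degrees of freedom, and its p-values borrow information on spread from all genes. Each p thus rests on few mice.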
